A study of Rattus norvegicus with 6 samples.

Results

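The 5 hairpins miR-322, miR-503, miR-351, miR-542 and miR-450a lie side by side on the minus strand of rat chromosome X and are processed from one primary transcript. Their members here are every mature arm of these hairpins in the deposited tables, found by name: 10 of 1071 rows, of which 552 are known rat miRNAs. All 10 had counts in every Intracellular library and in at least 1 EV library, and 7 passed the filter on low counts and were tested. The question was whether arms cut from one transcript reach vesicles alike.

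The samples were fibroblasts of rat sciatic nerve, labelled wild type and untreated, all in batch 1. Of the 6 small RNA libraries, 3 came from extracellular vesicles of the fibroblasts (EV, called exosomal in the labels) and 3 from RNA inside the fibroblasts (Intracellular). The labels give no strain or age, and nothing says that the replicates came from separate cultures or animals. The p-values therefore describe the spread over these samples alone, and that spread may be technical.

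A polycistron is transcribed as one long RNA, from which Drosha cuts each hairpin and Dicer releases the 5p and 3p arms. One or both arms are then loaded into an Argonaute protein, so that arms made in equal number need not stay so. miR-322, the rodent counterpart of human miR-424, and miR-503 belong to the extended miR-15 and miR-16 family and are known to repress cell cycle genes such as Cdc25a. miR-351 carries the seed of the miR-125 family, and miR-542-3p is known to repress Birc5, which encodes survivin.

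The mature sequences below are RefSeq's (GRCr8), equal to the deposited sequences for all 10 members, and are shown because the seed (bases 2 to 8, in capitals) sorts the arms into families. In the gene table of that build the order along the transcript is Mir322, Mir503, Mir351, Mir542, Mir450b-1 and Mir450a1.
rno-miR-322-5p: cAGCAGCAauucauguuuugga
rno-miR-503-5p: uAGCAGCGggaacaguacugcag
rno-miR-351-5p: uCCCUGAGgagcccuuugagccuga
rno-miR-542-3p: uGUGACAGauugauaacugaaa
rno-miR-450a-5p: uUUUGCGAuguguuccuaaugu
rno-miR-322-3p: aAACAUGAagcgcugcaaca
rno-miR-503-3p: gGAGUAUUguuuccgcugccugg
rno-miR-542-5p: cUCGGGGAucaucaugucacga
rno-miR-351-3p: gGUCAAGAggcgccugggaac
rno-miR-450a-3p: uAUUGGGAacauuuugcauaa

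No seed is shared between the 10 arms. The seed of miR-322-5p is that of miR-15b-5p, miR-16-5p, miR-195-5p and miR-497-5p, the seed of miR-351-5p is that of miR-125a-5p and miR-125b-5p, and the seed of miR-450a-5p is that of miR-450b-5p, a neighbour on the transcript that is not a member. The miR-503 hairpin is shown whole with its 5p arm and then its 3p arm in capitals, since both of its arms were tested and their balance is described below.
miR-503 hairpin: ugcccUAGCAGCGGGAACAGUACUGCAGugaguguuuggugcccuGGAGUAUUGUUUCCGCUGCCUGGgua

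Library totals ranged from 81211 to 105578 counts in EV and from 1839047 to 8859302 in Intracellular libraries, so that 1 count is worth 9.47 to 12.3 counts scaled to 1000000 per library (CPM) in EV and 0.113 to 0.544 CPM in Intracellular libraries. The list of fibroblast and mesenchymal miRNAs, 6 of 6 present, took 415352 to 424302 CPM in the EV libraries and 465257 to 490341 CPM in Intracellular libraries. The 2 myelinating glia miRNAs in the tables took 0 to 47.4 CPM in the EV libraries and 8.16 to 20.1 CPM in Intracellular libraries, with miR-219a-5p at 0 in EV. The liver and serum list, 3 of 3 present, summed to 11612 to 14069 CPM in the EV libraries and 397.1 to 476.3 CPM in Intracellular libraries. Most of this was miR-122-5p, at mean levels of 12119 and 194.7 CPM in EV and Intracellular libraries and called higher, while miR-192-5p and miR-194-5p were not called (log2 fold changes of 0.15 and 0.14, edgeR adjusted p = 0.664 and 0.723). The erythroid list summed to 151.5 to 221.6 CPM in the EV libraries and 2.26 to 5.98 CPM in Intracellular libraries, with miR-486 and miR-451-5p called higher and miR-144-3p at 0 in EV and not tested. Sums were also higher in EV without overlap for the leukocyte list, 5 of 5 present, at 216.6 to 265.2 CPM in the EV libraries and 63.6 to 169.9 CPM in Intracellular libraries, with miR-142-5p and miR-223-3p at 0 in EV. Most of the EV sum was miR-155-5p, at mean levels of 209.1 and 90.6 CPM in EV and Intracellular libraries and not called (edgeR adjusted p = 0.0755). By contrast miR-142-3p was at 14.5 and 20.8 CPM, with a log2 fold change of -1.13 (edgeR adjusted p = 0.264). The sum of the muscle list, 3 of 3 present, was higher in EV without overlap, at 49.3 to 151.5 CPM in the EV libraries and 9.06 to 12.6 CPM in Intracellular libraries. Of this list miR-206-3p alone was tested, at mean levels of 85.4 and 2.76 CPM in EV and Intracellular libraries and called higher. Sums overlapped between the groups for the endothelium list, at 259.9 to 435.7 CPM in EV and 141.4 to 390.3 CPM in Intracellular libraries. They also overlapped for the neuron list, at 2160 to 2578 CPM in EV and 1580 to 3277 CPM in Intracellular libraries. The part of the 4 lists with higher sums in EV in the results below was not tested.

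As a whole the cluster's share of counts in every EV library lay above Intracellular replicate 1 and below Intracellular replicates 2 and 3. In EV replicates 1, 2 and 3 it held 0.463% (95% Wilson interval 0.419 to 0.512), 0.511% (0.470 to 0.556) and 0.407% (0.368 to 0.450) of counts. In Intracellular replicates 1, 2 and 3 it held 0.285% (0.277 to 0.293), 0.614% (0.606 to 0.623) and 0.519% (0.514 to 0.524). The EV libraries thus lay between the lowest and the highest Intracellular library, and the means were 0.461% ± 0.0522 and 0.473% ± 0.170 in EV and Intracellular libraries (SD, n = 3 each; 2-sided exact permutation p = 0.9, where 3 against 3 cannot go below 0.1). The difference of -0.0121 percentage points turned to 0.0146 without EV replicate 3, 0.0587 without Intracellular replicate 2 and 0.0111 without Intracellular replicate 3. Without Intracellular replicate 1 it was -0.106. With the 10 most abundant miRNAs left out of the total, the shares were 1.31% ± 0.107 in the vesicles and 1.80% ± 0.431 inside the cells (SD, n = 3 each; exact permutation p = 0.2), a difference of -0.487 percentage points, so the size of the difference depends on the total it is taken from. As these are bulk preparations, fewer vesicles carrying an arm and less of it in each vesicle cannot be told apart. Intervals cover counting error only, since no molecular identifiers are named.

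Intracellular replicate 1 stood apart for the cluster. All 10 arms had their lowest Intracellular level there, at 0.281 to 0.670 times the mean of the other Intracellular libraries (median 0.517). The same ratio had a median of 0.557 over all 328 miRNAs tested, and 65.2% of them lay below 0.670, so the low level was shared with many tested miRNAs. As CPM sums to a fixed total, others were higher in that library. The library sets the low end of the Intracellular range for each arm and for the cluster's share.

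The counts of the cluster came mostly from a few arms. miR-450a-5p, the most counted, was at 1909, 2254 and 1679 CPM in EV replicates 1, 2 and 3, against 1432, 3178 and 2210 CPM in the same order inside the cells. miR-351-5p was at 1515, 1421 and 1278 CPM in the EV libraries and 790.6, 1600 and 1550 CPM in Intracellular libraries. Both arms had EV levels inside the Intracellular range, whose low end was replicate 1. For miR-351-5p all EV levels were below Intracellular replicates 2 and 3. For miR-450a-5p EV replicate 2 was above Intracellular replicate 3. miR-542-3p was at 381.7, 454.6 and 552.4 CPM in the EV libraries and 313.7, 803.5 and 838.3 CPM in Intracellular libraries. Its EV levels lay above Intracellular replicate 1 and below Intracellular replicates 2 and 3.

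Both arms of miR-322 were at similar levels. miR-322-5p was at 135.4, 170.5 and 119.1 CPM in EV (11, 18 and 11 counts) and 78.8, 182.9 and 175.2 CPM in Intracellular libraries. miR-322-3p was at 246.3, 217.8 and 151.6 CPM in the EV libraries and 126.2, 196.5 and 209.8 CPM in Intracellular libraries. The groups overlapped for both, for miR-322-5p through Intracellular replicate 1 alone.

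miR-503-5p differed from these. It was at 381.7, 426.2 and 184.1 CPM in EV replicates 1, 2 and 3 (31, 45 and 17 counts), and at 43.0, 87.8 and 97.1 CPM in Intracellular replicates 1, 2 and 3 (79, 291 and 860 counts). The lowest EV library, replicate 3, was above the highest Intracellular one. The means were 330.7 ± 128.9 CPM in the EV libraries and 76.0 ± 28.9 CPM in Intracellular libraries (SD, n = 3 each). Of the 7 tested arms it was the one with no overlap of CPM between groups; 41.8% of all tested miRNAs were higher without overlap in EV and 3.66% were lower without overlap.

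**Figure D1:**
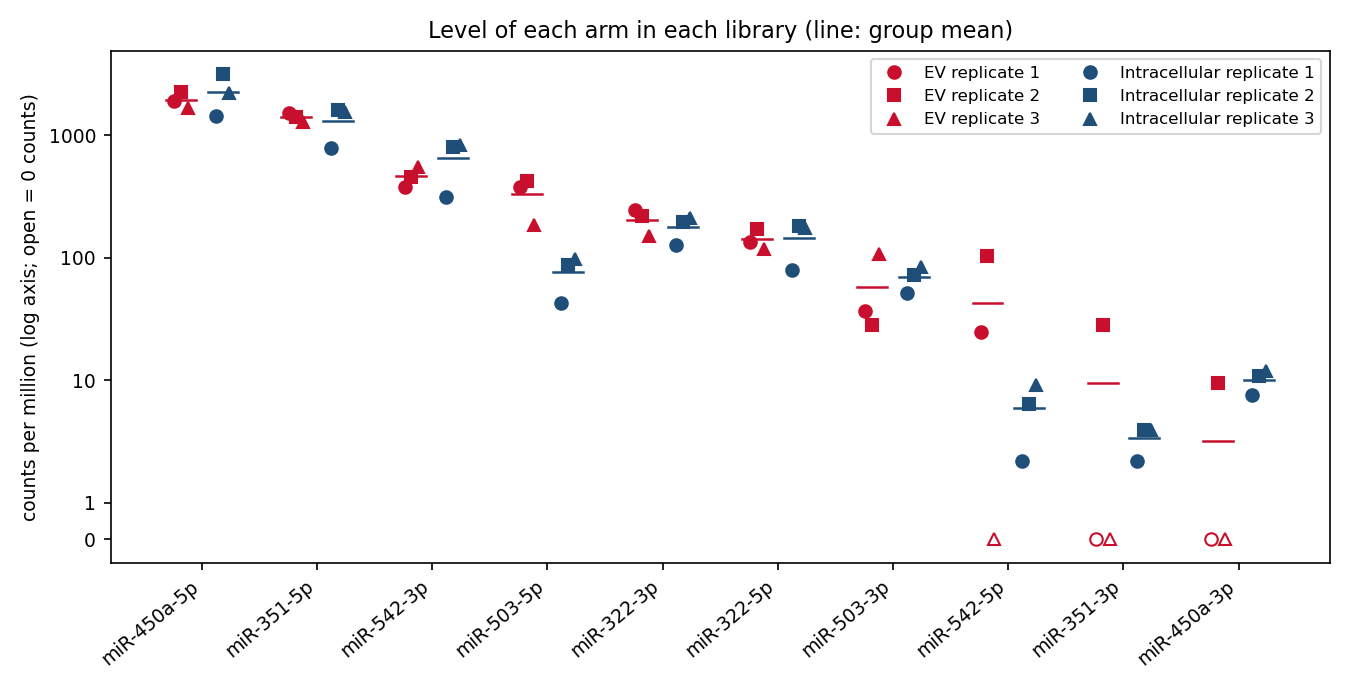
Level of the 10 arms in CPM (log axis), with EV libraries in red left of Intracellular libraries in blue, 1 symbol per replicate, open symbols for 0 counts and a line at the group mean. The 3 EV libraries lie above the 3 Intracellular ones for miR-503-5p, while the other 9 arms overlap, miR-542-5p through EV replicate 3 at 0.

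By mean level in EV the order was miR-450a-5p, miR-351-5p, miR-542-3p, miR-503-5p, miR-322-3p, miR-322-5p, miR-503-3p, miR-542-5p, miR-351-3p and miR-450a-3p. In Intracellular libraries miR-503-5p came after both miR-322 arms, as the sixth instead of the fourth. In EV, neighbours in the order overlapped over the replicates except miR-450a-5p and miR-351-5p, miR-351-5p and miR-542-3p, and miR-322-5p and miR-503-3p. In Intracellular libraries, neighbours overlapped except miR-542-3p and miR-322-3p, and miR-503-3p and miR-450a-3p. Within every Intracellular library, though, miR-450a-5p lay above miR-351-5p, and miR-351-5p above miR-542-3p. Within every library of both groups miR-322-3p lay above miR-322-5p. CPM is a count per miRNA with no length term, and adapter ligation favours some sequences, so this is an order of counts.

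The fit over all 328 tested miRNAs (edgeR's quasi-likelihood test, 2-sided, Benjamini-Hochberg adjusted, called at an adjusted p under 0.05) was scaled by TMM, which sets most miRNAs to no change on average. On that scale 1 of the 7 tested arms was called higher and 3 lower in EV, where 25.6% of all tested miRNAs were called higher and 17.1% lower. Scaled by total counts, 1 was called higher and 0 lower, where 32.6% and 0.915% of all tested were. With total counts 0 arms were lower at an unadjusted p under 0.05. DESeq2 called 1 higher and 3 lower, and limma on log2(TPM + 1) called 1 higher and 0 lower. The median log2 fold change of the 7 was -0.61 with TMM and -0.034 with total counts, beside -0.065 and 0.55 for all tested miRNAs, so the scalings differ by a shift of 0.61.

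miR-503-5p was called higher in every setting run. Its log2 fold change was 1.52 (SE 0.28, edgeR adjusted p = 0.000209) with TMM and 2.12 (SE 0.42, edgeR adjusted p = 0.000145) with total counts. It stood at rank 61 of the 328 tested miRNAs from the highest rise. Over all settings the log2 fold change ran from 1.22 to 2.12 and the adjusted p from 5.03e-07 to 0.0047, and it was higher in 3 of 3 EV libraries than in any Intracellular one.

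The other 6 tested arms lay at log2 fold changes of -1.04 to -0.43 with TMM and -0.49 to 0.21 with total counts. miR-542-3p fell by 1.04 (SE 0.24, edgeR adjusted p = 0.00237) with TMM, and was at -0.49 with total counts (edgeR adjusted p = 0.367). miR-450a-5p fell by 0.82 (SE 0.20, edgeR adjusted p = 0.00257) with TMM, and was at -0.22 with total counts (edgeR adjusted p = 0.677). Both lower calls also held with RLE, upper-quartile and DESeq2's scaling, and were lost with total counts and with limma on log2(TPM + 1). miR-450a-5p also lost its call without Intracellular replicate 2 with the filter rerun (log2 fold change -0.54, edgeR adjusted p = 0.0701).

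miR-351-5p was called lower at -0.50 (SE 0.18, edgeR adjusted p = 0.0333) with TMM and turned to 0.099 with total counts (edgeR adjusted p = 0.862). Leaving out any of EV replicates 1, 2 and 3 or Intracellular replicates 2 and 3 ended this call with the tested rows kept, at log2 fold changes of -0.51, -0.51, -0.49, -0.45 and -0.42 and edgeR adjusted p of 0.0869, 0.0859, 0.0676, 0.137 and 0.149. miR-322-5p was at -0.61 (95% interval -1.19 to -0.040, edgeR adjusted p = 0.0786) with TMM and -0.034 (-0.92 to 0.85) with total counts. It was called without Intracellular replicate 1 with the filter rerun (-0.65, edgeR adjusted p = 0.0367). miR-322-3p was at -0.43 (95% interval -0.94 to 0.087, edgeR adjusted p = 0.176) with TMM and turned to 0.21 with total counts.

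**Figure D2:**
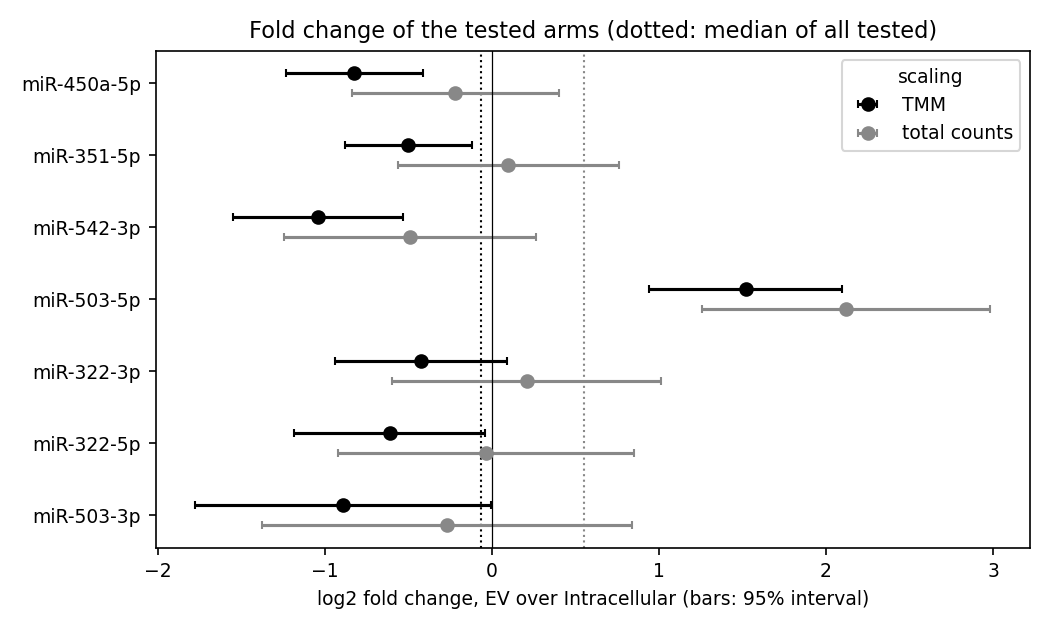
Log2 fold change of EV over Intracellular libraries for the 7 tested arms with its 95% interval, under TMM (black) and total-count scaling (grey); dotted lines mark the median of all 328 tested miRNAs, -0.065 and 0.55. miR-503-5p lies at 1.52 and 2.12, right of both medians, and the other 6 arms lie left of the median of their own scaling.

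Shares within the cluster need no scaling between libraries. miR-503-5p made up 8.24% (95% Wilson interval 5.87 to 11.5), 8.33% (6.29 to 11.0) and 4.52% (2.84 to 7.12) of the cluster's counts in EV replicates 1, 2 and 3, and 1.51% (1.21 to 1.88), 1.43% (1.28 to 1.60) and 1.87% (1.75 to 2.00) in Intracellular replicates 1, 2 and 3. No EV interval reached an Intracellular one. The means were 7.03% ± 2.18 in the vesicles and 1.60% ± 0.235 in Intracellular libraries (SD, n = 3 each; exact permutation p = 0.1, adjusted p = 0.5 over the 10 arms).

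The shares of the other tested arms overlapped between the groups, for miR-450a-5p through Intracellular replicate 3 alone (42.6%). That library had the highest level of miR-450b-5p, described below. Whether the share of miR-450a-5p depends on how reads were divided between them was not tested. miR-450a-5p made up 42.2% ± 1.65 in the vesicles and 48.2% ± 4.92 in Intracellular libraries, miR-351-5p 30.6% ± 2.55 and 27.9% ± 1.91, and miR-542-3p 10.2% ± 2.90 and 13.4% ± 2.58 in the same order of groups (SD, n = 3 each; exact permutation p of 0.2, 0.2 and 0.3). miR-322-5p made up 3.06% ± 0.235 in the vesicles and 3.04% ± 0.308 in Intracellular libraries (SD, n = 3 each; exact permutation p = 1).

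**Figure D3:**
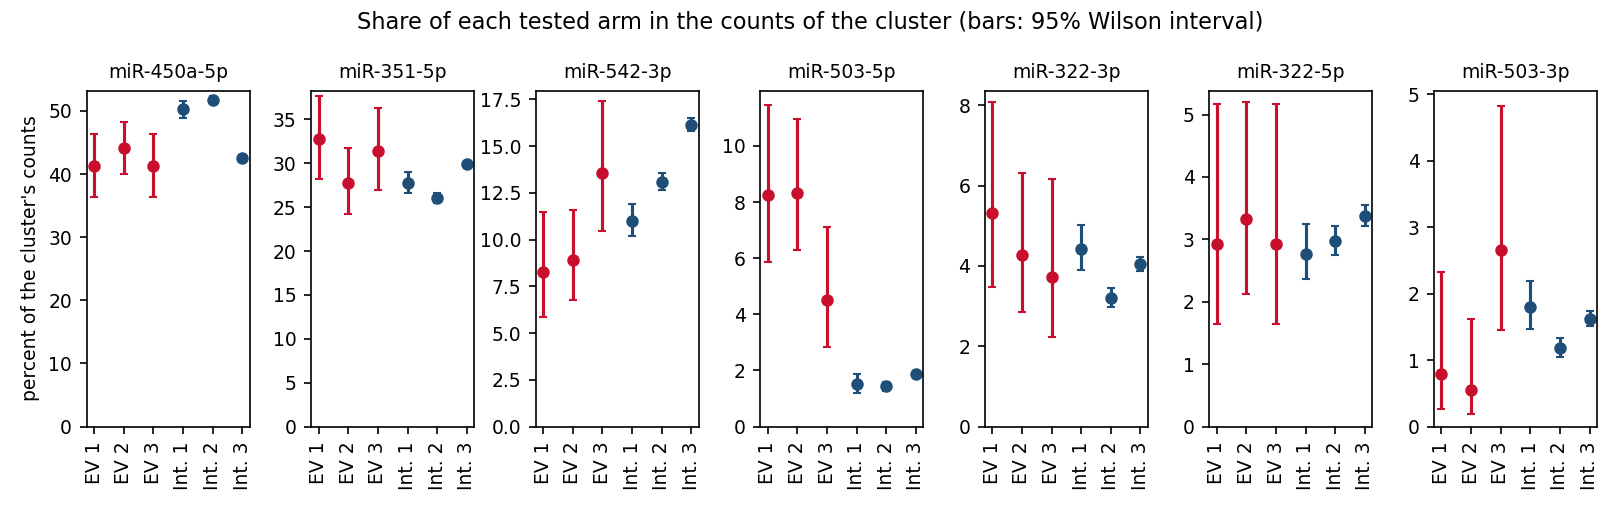
Share of each tested arm in the cluster's counts, in percent, for the 3 EV libraries (red) and then the 3 Intracellular ones (blue, "Int."), with 95% Wilson intervals; each panel has its own axis from 0. The shares of miR-503-5p are 4.52% to 8.33% in EV and 1.43% to 1.87% in Intracellular libraries, and those of the other 6 arms overlap.

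Set against miR-322-5p in the same library, as a log2 ratio with a prior count of 1, miR-503-5p was at 1.42, 1.28 and 0.58 in EV and -0.87, -1.06 and -0.85 in Intracellular libraries, in replicate order. The mean difference of 2.02 was 1.86 to 2.27 with any 1 library left out, and 2.21 against the sum of the other 9 arms (exact permutation p = 0.1; adjusted p = 0.3 over 9 ratios). These arms share most of their seed, and their ratio was higher in every EV library than in any Intracellular one. The ratios of the low-count arms miR-542-5p and miR-351-3p to miR-322-5p also differed without overlap, by 2.55 and 2.11 (exact permutation p = 0.1, adjusted p = 0.3 for both). Both arms had 0 counts in EV replicate 3, and miR-351-3p also in EV replicate 1, where their ratios rest on the prior count. With a prior count scaled to library size the difference of miR-351-3p turned negative. The adjusted p of 0.3 for miR-503-5p depends on the equally low p of these low-count arms. For miR-351-5p the same difference was 0.027 (exact permutation p = 0.9) and turned to -0.046 without EV replicate 1, -0.016 without EV replicate 3 and -0.0078 without Intracellular replicate 2. It was -0.30 for miR-450a-5p (exact permutation p = 0.3) and -0.49 for miR-542-3p (exact permutation p = 0.2).

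In EV replicates 1 and 2 the arms of the miR-503 hairpin lay on opposite sides of the Intracellular levels. In EV replicate 3 both lay above them. miR-503-3p was at 36.9, 28.4 and 108.3 CPM in EV replicates 1, 2 and 3 (3, 3 and 10 counts), and at 51.1, 72.4 and 84.3 CPM in Intracellular replicates 1, 2 and 3. EV replicates 1 and 2 lay below all Intracellular libraries and EV replicate 3 above them. Its log2 fold change was -0.89 (95% interval -1.78 to -0.0062, edgeR adjusted p = 0.0983) with TMM and -0.27 with total counts. Without EV replicate 3 it was called lower (-1.78, edgeR adjusted p = 0.0101, tested rows kept).

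As a share of both miR-503 arms, the 3p arm took 8.82% (95% Wilson interval 3.05 to 23.0), 6.25% (2.15 to 16.8) and 37.0% (21.5 to 55.8) in EV replicates 1, 2 and 3. In Intracellular replicates 1, 2 and 3 it took 54.3% (46.9 to 61.6), 45.2% (41.0 to 49.5) and 46.5% (44.1 to 48.9). EV replicates 1 and 2 lay clear of the Intracellular intervals, while the interval of EV replicate 3, from 27 counts, overlapped them. The log2 ratio of 3p over 5p arm differed by -2.33 between EV and Intracellular libraries (exact permutation p = 0.1, adjusted p = 0.125 over 5 hairpins), by -1.78 without EV replicate 2 and by -3.18 without EV replicate 3. The adjusted p depends on the equally low p of miR-542, miR-351 and miR-450a, where the lack of overlap rests on the prior count.

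For miR-322 the 3p arm took 64.5%, 56.1% and 56.0% of both arms in EV replicates 1, 2 and 3 (31, 41 and 25 counts) and 61.5%, 51.8% and 54.5% in Intracellular replicates 1, 2 and 3. The ratio of its arms differed by 0.14 on the log2 scale (exact permutation p = 0.5), and by -0.016 without EV replicate 1. The remaining hairpins had one dominant arm in both groups, the 3p arm for miR-542 and the 5p arm for miR-351 and miR-450a, but the log2 ratio of their arms, with a prior count of 1, also lay apart between the groups.

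For miR-542 the 3p arm took 93.9% (95% Wilson interval 80.4 to 98.3), 81.4% (69.6 to 89.3) and 100% (93.0 to 100) of both arms in EV replicates 1, 2 and 3, and 99.3% (98.2 to 99.7), 99.2% (98.8 to 99.5) and 98.9% (98.7 to 99.1) in Intracellular replicates 1, 2 and 3. EV replicate 2 lay clear of the Intracellular intervals, and EV replicate 3, with 0 counts of the 5p arm, lay above them in its share. With a prior count of 1, the log2 ratio differed by -3.04 without overlap (exact permutation p = 0.1, adjusted p = 0.125 over 5 hairpins). EV replicate 3 was at 5.70 on this scale, below the 6.50 to 6.92 of Intracellular libraries, although its share was above theirs. The lack of overlap thus rests on the prior count. The difference ran from -4.04 to -2.20 with any 1 library left out and was -1.28 with a prior count scaled to library size. The ratio also differed without overlap for miR-351 (2.08) and miR-450a (0.56), both at an exact permutation p of 0.1 and an adjusted p of 0.125. Both turned negative with a prior count scaled to library size, at -1.25 and -2.95, and each 3p arm had 0 counts in EV replicates 1 and 3.

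**Figure D4:**
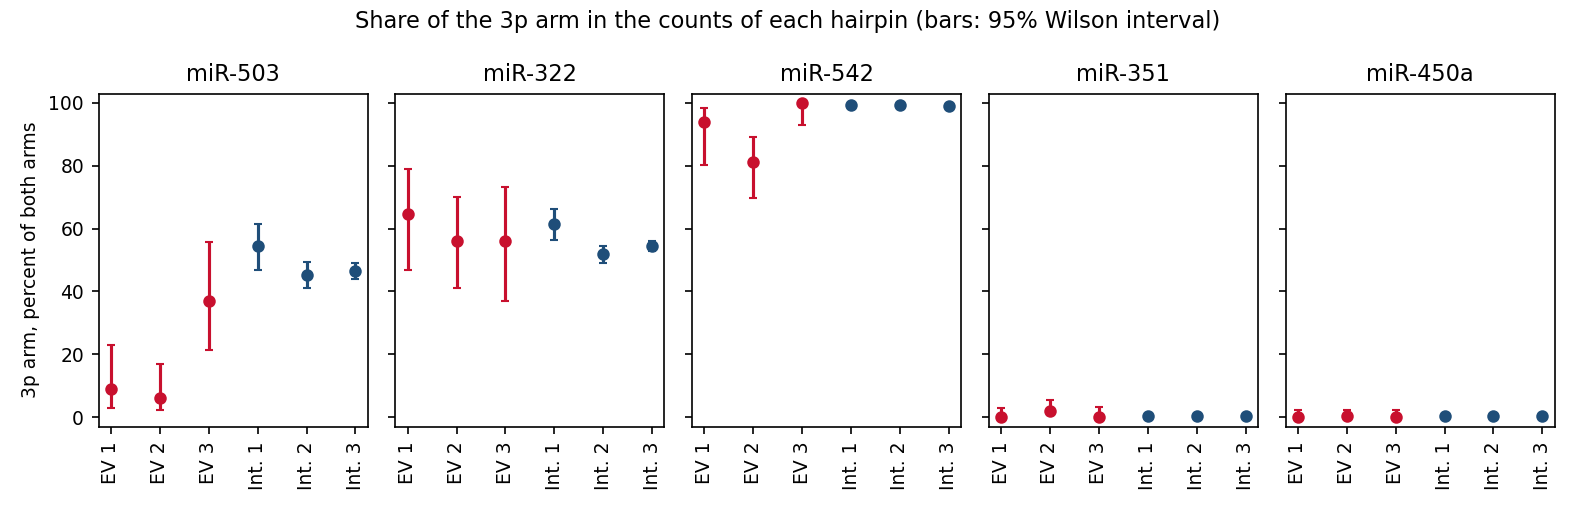
Share of the 3p arm in the counts of both arms of each hairpin, in percent, for the 3 EV libraries (red) and then the 3 Intracellular ones (blue, "Int."), with 95% Wilson intervals. For miR-503 the EV libraries are at 6.25% to 37.0% and the Intracellular ones at 45.2% to 54.3%, while the values for miR-322 overlap.

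The minor arms of the other hairpins, miR-542-5p, miR-351-3p and miR-450a-3p, did not pass the filter on low counts over the 6 libraries. miR-542-5p had 2, 11 and 0 counts in EV replicates 1, 2 and 3 (24.6, 104.2 and 0 CPM) and was at 2.18, 6.34 and 9.14 CPM in Intracellular replicates 1, 2 and 3. Most of its 13 EV counts came from replicate 2. Kept in by a filter of 3 counts in 3 libraries, it had a log2 fold change of 2.17 (edgeR adjusted p = 0.0214). Without EV replicate 2 this was 0.22 (edgeR adjusted p = 0.918) with the first filter rerun on the remaining libraries. The 0 of EV replicate 3 allows up to 32.5 CPM.

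miR-351-3p had 0, 3 and 0 counts in EV replicates 1, 2 and 3 and 4, 13 and 35 in Intracellular ones, a pooled ratio of CPM of 2.90 (exact 95% counting interval 0.579 to 8.94). miR-450a-3p had 0, 1 and 0 counts in EV and 14, 36 and 105 in Intracellular libraries, a pooled ratio of 0.324 (0.00815 to 1.83). No difference was detectable for either at this depth.

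miR-450b-5p, which shares its first 20 bases with miR-450a-5p, was at 480.2, 265.2 and 834.0 CPM in the EV libraries and 139.7, 359.8 and 1210 CPM in Intracellular libraries. It varied more within each group than miR-450a-5p did, and its log2 fold change of -0.61 had an SE of 0.89 (edgeR adjusted p = 0.649). It turned to 0.47 without Intracellular replicate 3 (edgeR adjusted p = 0.338, tested rows kept) and to 0.27 with limma on log2(TPM + 1), so no direction is given for it. How reads that fit both were divided is not given in the sources used here. With both rows summed, their joint level fell by 0.78 with TMM (edgeR adjusted p = 0.00279).

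Of the 7 relatives that share a seed with miR-322-5p or miR-351-5p or belong to the miR-15 family, 4 were tested. miR-16-5p was at 540.1 ± 67.1 CPM in the EV libraries and 469.8 ± 231.7 CPM in Intracellular libraries, and miR-15b-5p at 44.8 ± 20.9 and 47.5 ± 18.6 CPM (SD, n = 3 each), with log2 fold changes of -0.35 and -0.63 (edgeR adjusted p = 0.259 for both) with TMM. With total counts miR-16-5p turned to 0.20 and miR-15b-5p was at -0.057, and with limma on log2(TPM + 1) miR-16-5p was at 0.35. miR-16-5p was called lower without Intracellular replicate 1 (-0.50, edgeR adjusted p = 0.0481, tested rows kept) and with the upper quartile (-0.61, edgeR adjusted p = 0.027). Their difference from miR-503-5p was not tested. miR-125a-5p fell by 0.83 (edgeR adjusted p = 0.00298) and miR-125b-5p by 0.99 (edgeR adjusted p = 0.0025) with TMM, and were at -0.21 and -0.37 with total counts (edgeR adjusted p = 0.606 and 0.141). miR-15a-5p, miR-195-5p and miR-497-5p had at most 2 EV counts in all and were not tested.

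The profile over the 6 libraries was also set against 167 known miRNAs outside the cluster with at least 50 CPM in both groups, by the root mean square difference of centred log2(CPM + 1). The nearest to miR-351-5p were miR-30b-5p (0.0502), miR-145-5p (0.0855) and miR-30a-5p (0.0988), all nearer than any arm of its own cluster, of which miR-322-5p was the nearest (0.157). The nearest to miR-450a-5p were miR-145-5p (0.206), miR-25-3p (0.209) and miR-455-3p (0.211), while miR-322-5p was at 0.194. miR-503-5p was at 1.02 from miR-351-5p and 1.18 from miR-450a-5p. The 167 candidates far outnumber the arms, so a nearer miRNA outside the cluster does not tell whether arms of one transcript are less alike.

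Short motifs reported for sorting of miRNAs into vesicles were searched in the mature strands as written. GGAG is in miR-351-5p and miR-503-3p, and in 8.62% of the 290 known tested miRNAs. CCCU is in miR-351-5p, also within its seed, and in 6.90% of them, and GGCU is in 0 of the 10 arms and in 13.1% of them. No match overlapped another, and miR-503-5p holds none of the 3 motifs. miR-503-5p and miR-503-3p are both 23 bases long with a GC content of 56.5%, above the median of 45.8% over the known tested miRNAs. miR-351-5p, at 25 bases and 60.0% GC, is longer than their median of 22.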

How the data were processed

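Small RNA was profiled in 3 EV and 3 Intracellular samples. Per the labels' protocols, adapters were ligated to both RNA ends and the cDNA amplified by PCR, which favour some sequences over others. The submitters' processing notes name cutadapt and Rnor_6.0. Which aligner, miRNA database and counter were used is not given in the sources used here. The deposited count table holds the authors' whole-number counts per mature miRNA. The deposited TPM table of the authors equals these counts scaled to 1000000 per library. Coordinates are not printed, because the reference tables are of GRCr8. Sequences were matched by miRNA name.

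EV was set against Intracellular with edgeR 4.0.16 in R 4.3.3 (quasi-likelihood test, TMM, filterByExpr with minimum count 10 and minimum total 15, robust dispersions, no replicate block). The filter scales its minimum to the median library, so rows with fewer than 10 counts in an EV library could pass. miR-503-3p passed with 3, 3 and 10 counts in EV replicates 1, 2 and 3. The procedure was also tested on simulated data, with a single dispersion for all miRNAs, unlike these data. It called 18.2% of 1.5-fold, 40.6% of 2-fold and 89.1% of 4-fold changes, so smaller changes were often missed. Standard errors came from the F statistic. Ratios within a library had a prior count of 1 and 2-sided exact permutation tests (scipy 1.17.1). Alternatives were other scalings and filters, DESeq2 1.42.0, limma 3.58.1 on log2(TPM + 1), known miRNAs alone, a replicate block and each library left out. Summing miR-450a-5p with miR-450b-5p was chosen after seeing the data. Every member arm was named, with its seed relatives and the 3 nearest profiles to each of the 2 most counted arms. Members and lists were chosen with earlier results of these data known.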

Additional observations from a re-analysis of the deposited data

How the results depend on the processing

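The EV libraries limit what can be seen: 3 counts stand for 28.4 to 36.9 CPM there, and ratios of arms with 0 counts in EV rest on the prior count. The call of miR-503-5p and the sign of its ratios held in every setting run. Deviations of same-numbered EV and Intracellular libraries correlated at 0.034, 0.089 and -0.023. EV replicates 1 and 2 correlated best with their own number and EV replicate 3 did not. Correlations this small can neither show nor exclude a pairing by replicate number. With the replicate block 87 miRNAs were higher and 46 lower (84 and 56 without), and no call of a member changed (miR-351-5p -0.50, adjusted p = 0.0407).

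With total counts 3 miRNAs and 0 members were lower, with miR-322-3p at 0.21, miR-351-5p at 0.099, miR-450a-5p at -0.22 and miR-542-3p at -0.49. With limma on log2(TPM + 1), 4 miRNAs and 0 members were lower, with miR-322-3p at 0.21, miR-322-5p at 0.040, miR-351-5p at 0.16, miR-450a-5p at -0.16 and miR-542-3p at -0.38; neither setting uses TMM. With the upper quartile 92 miRNAs and 6 members were lower, with miR-322-3p at -0.68, miR-322-5p at -0.87 and miR-503-3p at -1.15 now called. With no filter 197 miRNAs were higher; there, and with 3 counts in 3 libraries, 2 members were. With known miRNAs alone 37 were lower, and miR-351-5p was no longer called (-0.37). For these the cause was not tested.

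With a prior count scaled to library size, the differences of miR-351-3p and miR-450a-3p to miR-322-5p turned to -1.13 and -3.15, and those of the miR-351 and miR-450a arm pairs to -1.25 and -2.95. With a prior count of 0.25 the miR-450a values were -1.19 and -0.96.

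With 1 library left out, whether the filter was rerun or the tested rows kept, 50 to 91 miRNAs were higher and 18 to 58 lower, and 1 to 2 members were higher and 1 to 4 lower. The log2 fold change ran from -0.83 to -0.42 for miR-322-5p, -0.56 to -0.34 for miR-351-5p, -0.99 to -0.54 for miR-450a-5p and -1.85 to -0.52 for miR-503-3p. The differences to miR-322-5p ran from -0.016 to 0.31 for miR-322-3p, -0.046 to 0.14 for miR-351-5p and -0.91 to 0.15 for miR-503-3p. The cluster's level ran from -0.106 to 0.0587 percentage points. Without the 10 most abundant miRNAs in the total it was -0.487.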
